A study of Drosophila melanogaster with 20 samples.

Results

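The brain turns chemical and sensory input into spikes through ion channels, and 39 channel genes of the fruit fly *Drosophila melanogaster* are described here in both sexes and on the diets fed to each. They were taken by name: the voltage-gated and calcium- or sodium-activated potassium channels, the inward rectifiers and potassium leak channels, the sodium and calcium channels with their accessory subunits, the sodium leak channel complex and the pacemaker channel Ih. All 39 were present among 12206 genes measured in males and 12015 measured in females, and all 39 passed the filter on low values in both sexes. The rule that names them uses no measured value, though the list was drawn up with earlier results of these data known.

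Brain RNA of wild-type flies of strain W1118, 4 to 7 days old, was sequenced in 20 libraries, 5 for each of 4 groups. Male flies ate either a high-protein, low-carbohydrate diet (HPLC, protein to carbohydrate 1:1, at 180 g/L) or a low-protein, high-carbohydrate diet (LPHC, 0:1, at 180 g/L), and the submitters name these male diets as those with the shortest and the longest sleep. Female flies ate HPLC of 1:1 at 90 g/L or LPHC of 1:2 at 360 g/L, so the female groups differed in concentration as well as in composition, and sex and diet recipe cannot be told apart. How many brains made a library, and whether libraries came from separate cultures, is not in the labels; the spread behind each p-value is that between libraries and may be technical. Values are reads divided by 1 size factor per library, as deposited, called normalised reads here, and every difference is LPHC minus HPLC on the scale of log2(value + 1).

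Voltage-gated potassium channels open on depolarisation and carry the outward current that ends a spike and spaces it from the next one. Leak channels and inward rectifiers set the resting potential, sodium channels carry the upstroke, and calcium channels couple the spike to transmitter release and to gene expression. In the fly, the Shaker potassium channel and its partners Hyperkinetic and quiver (sleepless) are among the best known sleep genes, since loss of any of them shortens sleep.

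Depth was 13901684 to 35077559 reads per library. The 20 neuron markers and the 14 glia markers all passed the filter on low values in both sexes. Markers of other tissue were present too and moved with diet in males: the 20 muscle markers took 0.457% to 0.560% of reads in male HPLC libraries and 0.854% to 1.08% in male LPHC libraries, and the 13 fat body markers took 1.02% to 1.11% and 0.195% to 0.322%. Among these muscle markers TpnC4 was at 9 reads or fewer in every library. The fat body gene Lsp2 fell from a mean of 14238 normalised reads in male HPLC libraries to between 0 and 3 reads in each male LPHC library. In females the 13 fat body markers took 1.59% to 2.17% of reads on HPLC and 1.40% to 1.71% on LPHC. The 14 photoreceptor markers took 2.71% to 4.39% on HPLC and 4.45% to 5.82% on LPHC in females, without overlap in this share of the library total. Their summed normalised reads overlapped in females, reaching up to 969580 on HPLC and starting from 929302 on LPHC. In males they took 7.06% to 7.67% and 7.09% to 8.79%.

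In males, channel RNA was higher on LPHC across most families. Of the 39 genes 29 were called at a limma adjusted p under 0.05, beside 57.2% of all 10115 genes tested. They divide into 27 that rose and 2 that fell, against a background of 27.6% of all genes called higher and 29.6% called lower. The genes that rose include the Shaker-type channels, all EAG and KCNQ channels, the accessory subunits of calcium channels and the sodium leak complex. The 2 that fell were the inward rectifiers Irk1 and Irk2. The median difference over the 39 genes was 0.23, beside 0.02 over all genes tested, and single genes ranged from -0.50 to 0.52. In 14 genes every LPHC library lay above every HPLC library and in 1 gene every one lay below, against 19.0% and 23.7% of all genes (15 genes in either direction, against 42.7%).

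In females no channel gene rose and 2 fell, the Shaw-like potassium channel Shawl and the calcium channel cac, against 31.5% of all 9932 genes called, 16.7% higher and 14.8% lower. At an unadjusted p under 0.05 there were 0 higher and 4 lower, edgeR called 0 higher and 2 lower, and DESeq2 called 0 higher and 3 lower. The median over the 39 genes was -0.15, beside -0.02 over all genes. When libraries were scaled to the same total it moved to 0.02, beside 0.145 over all genes. The female groups did not overlap in 2 genes, Shal and Shawl, both lower on LPHC, against 22.1% of all genes in either direction and 10.1% lower.

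The male difference departed from the female difference in 24 of the 39 genes by a limma fit over all 20 libraries, beside 52.3% of 9766 genes. Of these it was above the female one in 23 and below it in 1, Irk1, against 22.7% and 29.6% of all genes. The median of this difference was 0.36 over the 39 genes and -0.02 over all genes. The plot of diet differences by gene shows male and female values apart in most families.

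**Figure D1:**
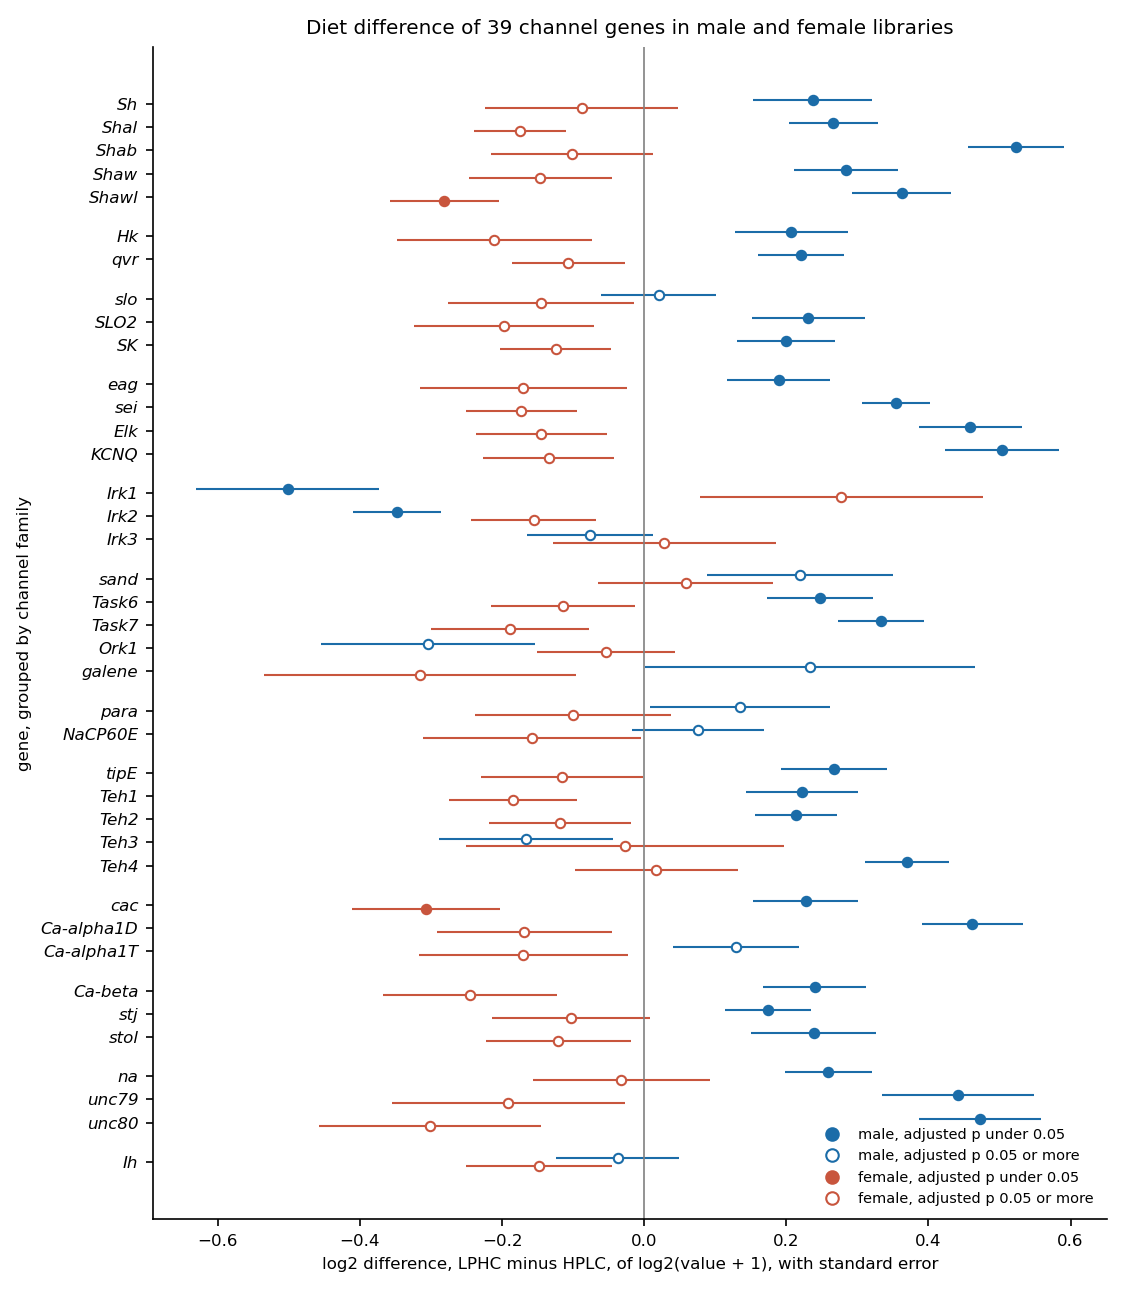
Difference between diets (LPHC minus HPLC, log2(value + 1), horizontal axis, with standard error) for each of the 39 channel genes (vertical axis, by family) in males and in females, 5 libraries a group. Filled points passed a limma adjusted p of 0.05: 27 male genes lie above 0 and the male values of Irk1 and Irk2 below it, while in females only Shawl and cac passed, both below 0, and neither of those passed once libraries were scaled to the same total.

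The size of these differences depends on how libraries are put on one scale. Scaling libraries to the same total moved the male median gene from 0.02 to 0.27, and 33 channel genes were then called higher and 0 lower, with 55.5% of all genes called higher and 18.4% lower. Scaling to the same upper quartile moved it to 0.18, with 30 channel genes higher and 2 lower, and with 46.8% and 21.4% of all genes. Scaling to the same mean of the 20 neuron markers moved it to -0.10, and 11 channel genes were then called higher and 3 lower, with 11.2% of all genes called higher and 32.8% lower. A scaling shifts all genes of a library alike, so the distance of the male channel median from the median gene, 0.21, is the same under each of them by construction.

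The 11 genes called higher relative to the neuron markers were Shab (0.40), KCNQ (0.38), unc80 (0.35), Ca-alpha1D (0.34), Elk (0.34), unc79 (0.32), Teh4 (0.25), Shawl (0.24), sei (0.23), Task7 (0.21) and Shaw (0.16). The 3 called lower were Irk1 (-0.62), Irk2 (-0.47) and the leak channel Ork1 (-0.43). Sh, Hk and qvr were not among them. In the difference between sexes on this scale 7 channel genes were above 0 and 3 below, against 6.9% and 36.9% of all genes, with the median gene at -0.28. At the same total these counts were 24 and 1, against 28.6% and 25.6% of all genes, and at the same upper quartile 28 and 1, against 33.6% and 22.9%.

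Of 20 neuron markers 7 rose and 1 fell in males, against 27.6% and 29.6% of all genes, with a median of 0.13 beside 0.02 over all genes. In females 0 rose and 1 fell, against 16.7% and 14.8%, with a median of -0.14. That median became 0.02 at the same total, where the median over all genes was 0.145. The neuron markers took 1.08% ± 0.0199 (SD, n = 5) of reads in male HPLC libraries and 1.39% ± 0.134 in male LPHC libraries. The 39 channel genes took 0.937% ± 0.0320 and 1.32% ± 0.149. The male groups did not overlap in the channel share, nor in the neuron marker share. Both are shares of the library total, a scale on which 55.5% of all genes were called higher in males and the median gene was at 0.27. In summed normalised reads the male neuron markers overlapped, at 273379 to 289039 on HPLC and 273298 to 338554 on LPHC. The male channel sums did not, at 233021 to 253735 and 259534 to 327150. In females the channel share was 0.519% ± 0.0872 on HPLC and 0.520% ± 0.0776 on LPHC, and the neuron marker share was 0.546% ± 0.0571 and 0.566% ± 0.0664.

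Male medians were 0.72 over the muscle markers tested and -0.60 over the glia markers. All 14 glia markers fell in males, from a share of 0.270% ± 0.00961 to 0.191% ± 0.00891, and 16 of 19 muscle markers tested rose while 1 fell, from 0.506% ± 0.0373 to 0.983% ± 0.0843. In females 5 glia markers rose and 5 fell, with a median of 0.01, and 1 of 18 muscle markers rose and 7 fell, with a median of -0.27. Of all genes tested, 27.6% were called higher and 29.6% lower in males, and 16.7% and 14.8% in females. In bulk tissue, fewer cells of a type and less RNA per cell cannot be told apart, and the part of these other tissues in the channel differences was not tested.

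**Figure D2:**
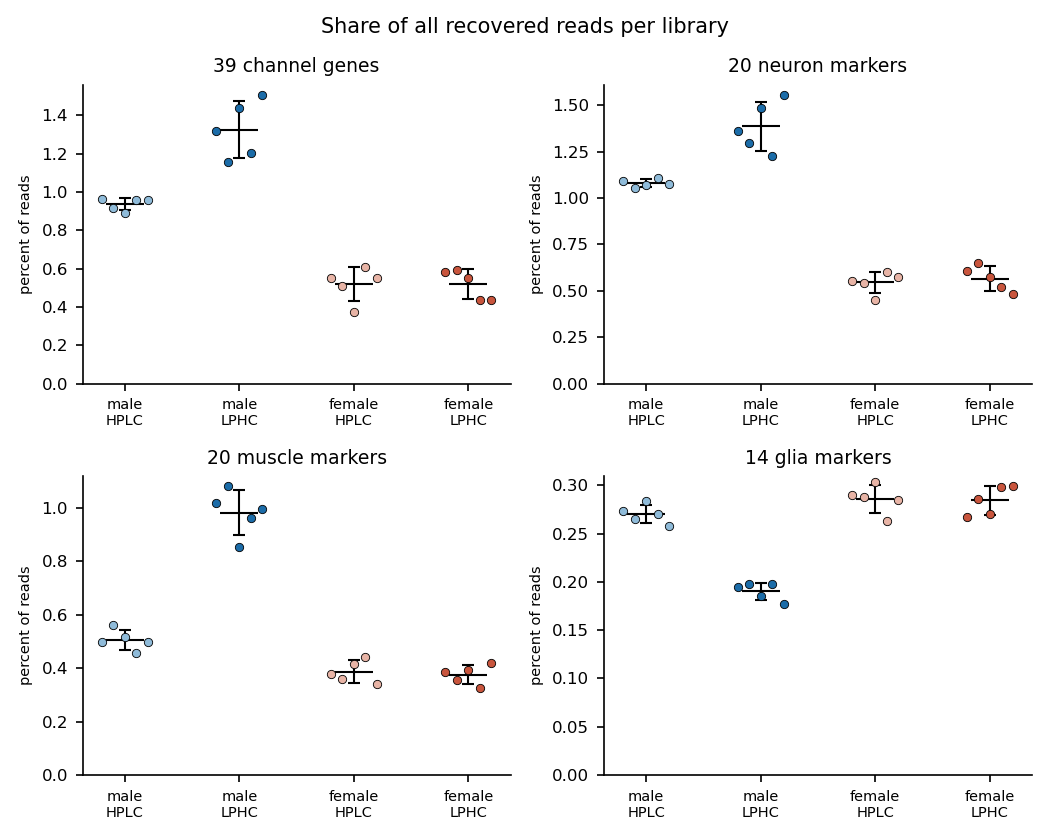
Share of all recovered reads per library (percent, vertical axes, from 0) taken by the 39 channel genes, 20 neuron markers, 20 muscle markers and 14 glia markers in the 4 groups (horizontal axes). Points are the 5 libraries in order of replicate number, bars the mean and SD; the channel share ran from 0.891% to 0.962% in male HPLC and from 1.16% to 1.504% in male LPHC, and the female groups overlapped.

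Channel genes are long, and in males the share of reads in long genes was higher on LPHC. The median length of merged exons was 6273 bases over the 39 genes and 1844 over all genes, and 20 of the 39 were at or over the 90th percentile of 5399 bases. Genes of that length outside the list took 22.3% ± 0.421 of reads in male HPLC libraries and 26.3% ± 1.73 in male LPHC libraries. In females they took 16.03% ± 1.39 and 16.6% ± 1.94. These shares are of the library total, a scale on which the male median gene also moved, to 0.27. The 1189 long genes tested in males had a median of 0.05, with 27.8% called higher, beside 0.02 and 27.6% over all genes. The 1183 tested in females had a median of -0.09, with 7.19% called higher, beside -0.02 and 16.7% over all genes. With a trend on exon length removed from each library, 27 channel genes were called higher and 3 lower in males, with a median of 0.21. Of all 10110 genes in that fit, 2940 were called higher and 3090 lower. In females 0 channel genes were then called higher and 4 lower, with a median of -0.08. Of all 9928 genes in that female fit, 2016 were called higher and 1752 lower. That removal was added after seeing the data, and the part of transcript length or RNA integrity in the channel differences was not tested beyond it.

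Within a group the channel genes moved together from library to library. In male LPHC replicates 3 and 5, 33 and 36 of the 39 genes were above the mean of their group, and so were 18 and 20 of the 20 neuron markers. Replicates 1, 2 and 4 had 12, 11 and 10 genes above it. Female HPLC replicate 3 was the lowest of its group, with 4 of 39 channel genes and 2 of 20 neuron markers above the mean, and female HPLC replicate 4 had 37 channel genes above it. Female LPHC replicates 4 and 5 had 10 and 5.

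These libraries set part of the counts. Without male LPHC replicate 5 the male counts were 19 higher and 3 lower, and without male LPHC replicate 3 they were 20 and 3. Of all 10115 male genes, 2578 were called higher and 2843 lower in the former fit, and 2608 and 2898 in the latter. Without female HPLC replicate 3 the female counts were 0 higher and 5 lower, and without female LPHC replicate 4 they were 1 and 3. Of all 9932 female genes, 1750 were called higher and 1609 lower in the former fit, and 1660 and 1484 in the latter. Leaving out any of HPLC replicates 1, 4 and 5 or LPHC replicate 5 left 1 female gene called lower. In those fits 1231 to 1354 of all 9932 genes were called lower.

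Sh encodes the pore-forming subunit of the Shaker channel, which gives a fast transient potassium current. In males it was at 19763, 17966, 16783, 19032 and 18019 normalised reads on HPLC and 21839, 19935, 22653, 18353 and 25690.2 on LPHC. Female libraries held 10877, 9351, 6654, 9910.1 and 11026 normalised reads on HPLC and 10230.4, 9927, 9547, 7224 and 7786 on LPHC. HPLC replicates 1 and 4 of the males lay above LPHC replicate 4, so the male groups overlapped, and the female groups overlapped over most of their range. Sh rose in males by log2 0.24 (SE 0.08, limma adjusted p = 0.0257), or 17.9%, and was log2 -0.09 (SE 0.14, limma adjusted p = 0.662) in females. The difference between sexes was log2 0.33 (SE 0.17, limma adjusted p = 0.119). The male call was lost when any 1 of HPLC replicates 2, 3 or 5 or LPHC replicates 3 or 5 was left out, with a limma adjusted p of up to 0.0664.

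Hk, or Hyperkinetic, is the cytoplasmic beta subunit that binds Shaker. Its male values were 10260.0, 9358, 9366, 9791 and 9392 normalised reads on HPLC and 10871, 9364, 12232, 10419 and 13063 on LPHC. Female values were 5273, 4528, 3542, 5872 and 5098 normalised reads on HPLC and 4678, 4964, 4495, 3354 and 3480.2 on LPHC. LPHC replicate 2 of the males lay within the HPLC range, and both female groups were wide. Hk rose in males by log2 0.21 (SE 0.08, limma adjusted p = 0.0379), and was log2 -0.21 (SE 0.14, limma adjusted p = 0.264) in females. The male call was lost when any 1 of HPLC replicates 2 to 5 or LPHC replicates 1, 3 or 5 was left out, with adjusted p up to 0.0954.

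qvr, the gene of the sleepless protein, encodes a small membrane-anchored protein of the Ly6 family that raises the level and the activity of Shaker. Its male libraries held 23261, 23049.8, 24064, 24606 and 23881 normalised reads on HPLC and 28801, 26278, 29157, 25146 and 29379.7 on LPHC. The female ones held 9839.8, 10274, 10074, 12371 and 10743 normalised reads on HPLC and 10698, 10349, 9702, 9642 and 9032 on LPHC. Every male LPHC library was above every male HPLC library, while the female groups overlapped. qvr rose in males by log2 0.22 (SE 0.06, limma adjusted p = 0.00628), and this call held without each of the 10 male libraries in turn. In females it was log2 -0.11 (SE 0.08, limma adjusted p = 0.330), and the male difference exceeded the female one by log2 0.33 (SE 0.10, limma adjusted p = 0.00670). Relative to the neuron markers the male differences of Sh, Hk and qvr were 0.11, 0.08 and 0.10, none of them called.

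**Figure D3:**
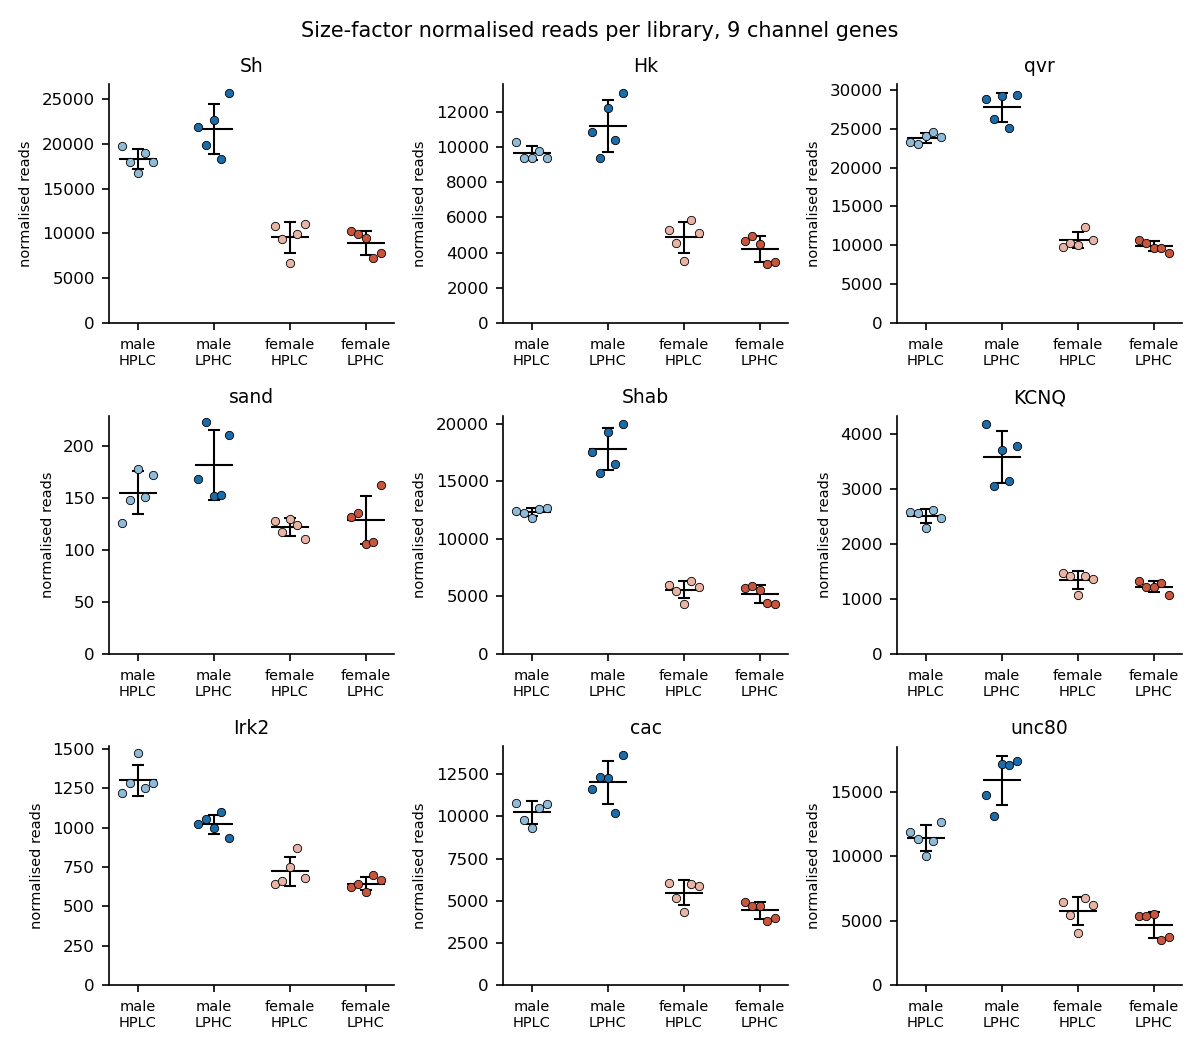
Normalised reads per library (vertical axes, from 0) of Sh, Hk, qvr, sand, Shab, KCNQ, Irk2, cac and unc80 in the 4 groups (horizontal axes), with the 5 libraries as points in order of replicate number and the mean and SD as bars. Male LPHC lies above male HPLC without overlap for qvr, Shab, KCNQ and unc80 and below it for Irk2, whose difference was not called at the same total, and the male and female tables were scaled apart.

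Reads of the partners were also set against those of Shaker in the same library. In males there were 0.527 ± 0.0177 (SD, n = 5) Hk reads for each Sh read on HPLC and 0.517 ± 0.0380 on LPHC (exact permutation p = 0.571). The ratio of qvr to Sh reads was 1.30 ± 0.0922 and 1.29 ± 0.0858 (exact permutation p = 0.794). In females the Hk ratio was 0.511 ± 0.0521 and 0.468 ± 0.0200 (exact permutation p = 0.111), and the qvr ratio was 1.15 ± 0.243 and 1.12 ± 0.132 (exact permutation p = 0.889). These ratios compare reads within a library, so they do not depend on its scaling.

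Over 24 such ratios of accessory to pore-forming subunit, 12 in each sex, none passed after Benjamini-Hochberg adjustment. The smallest 2-sided exact p that 5 against 5 libraries allow is 0.00794. A single ratio at this floor cannot pass among 24 tests, so the adjusted p cannot show that a ratio did not move. The floor was reached by stol to cac in females, 0.356 ± 0.0187 on HPLC and 0.406 ± 0.0324 on LPHC, groups that did not overlap (adjusted p = 0.127). The ratio of stj to cac in females was 0.812 ± 0.0817 and 0.933 ± 0.0411 (exact p = 0.0317, adjusted p = 0.190). The mean ratio of unc80 to na went from 3.02 ± 0.202 to 3.49 ± 0.188 in males and from 3.25 ± 0.309 to 2.69 ± 0.177 in females (exact p = 0.0159 and adjusted p = 0.127 in each sex).

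**Figure D4:**
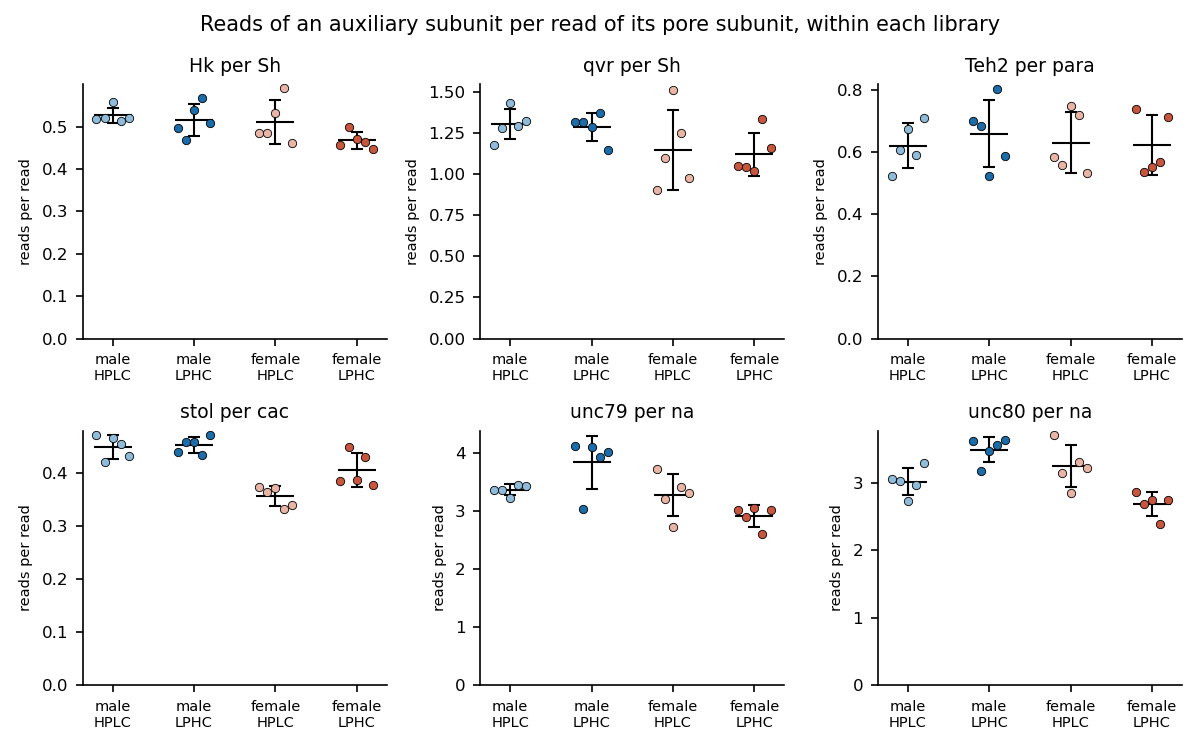
Reads of an accessory subunit for each read of its channel (vertical axes) in the 4 groups (horizontal axes), with the 5 libraries as points and the mean and SD as bars. The ratios of Hk and qvr to Sh overlap between diets in both sexes, and the unc80 to na ratio has a higher LPHC mean in males and a lower one in females, with an adjusted p of 0.127 in each.

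The other 4 Shaker-type channels, Shal, Shab, Shaw and Shawl, rose in males without overlap between diets. Counts by family, here and below, stand against 27.6% of all genes called higher and 29.6% lower in males. Of all genes, 19.0% were higher in males without overlap. In families this small, shares near these are no result about the family. Shab carries slow delayed-rectifier current, which repolarises neurons during repeated firing. Male libraries held 12434, 12257, 11767, 12548 and 12658 normalised reads on HPLC and 17569.7, 15694, 19282, 16467 and 19918 on LPHC. Its increase of log2 0.52 (SE 0.07, limma adjusted p = 1.46e-05), or 43.7%, was the greatest of the 39 genes. In females, where libraries held 5999.5, 5474, 4326, 6294 and 5819.5 normalised reads on HPLC and 5708, 5929, 5595, 4421 and 4361 on LPHC, the groups overlapped and the difference was log2 -0.10 (SE 0.11, limma adjusted p = 0.532). The male difference exceeded the female one by log2 0.62 (SE 0.14, limma adjusted p = 0.000740).

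Shawl, a relative of Shaw, had the smallest p of the 39 genes in the comparison of the sexes. Male values were 1064, 1011, 964, 1033 and 985 normalised reads on HPLC and 1182, 1374, 1328, 1155 and 1489.7 on LPHC. Female values were 499.6, 464, 467, 498 and 506 normalised reads on HPLC and 411, 445, 414, 375 and 362 on LPHC. Every male LPHC library was above, and every female LPHC library below, all libraries of the other diet. Shawl rose by log2 0.36 (SE 0.07, limma adjusted p = 0.000518) in males and fell in females by log2 0.28 (SE 0.08, limma adjusted p = 0.0110). The gap between the sexes was log2 0.64 (SE 0.10, limma adjusted p = 1.10e-05). The female call was lost under scaling to equal totals (-0.12) or to an equal neuron marker mean (-0.15), and it held without each of the 10 female libraries.

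Shal gives the transient A-type current of cell bodies and dendrites. In males the libraries held 3318, 3138, 3431, 3405 and 3480.5 normalised reads on HPLC and 3852, 4236, 4235, 3512 and 4388 on LPHC, and in females 1494, 1451, 1487, 1579 and 1439 normalised reads on HPLC and 1356, 1416, 1272, 1328 and 1231 on LPHC. The groups did not overlap in either sex. Shal rose in males by log2 0.27 (SE 0.06, limma adjusted p = 0.00232), and its female difference of log2 -0.18 (SE 0.06, limma adjusted p = 0.0506) missed the threshold. The sexes differed by log2 0.44 (SE 0.08, limma adjusted p = 0.000148). Shaw, a non-inactivating channel, ranged from 3414 to 3862 on HPLC and from 3990 to 5247 on LPHC in males. It rose in males by log2 0.28 (SE 0.07, limma adjusted p = 0.00464) and was log2 -0.15 (SE 0.10, limma adjusted p = 0.294) in females.

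Of the 3 channels gated by calcium or sodium, 2 rose in males, beside 27.6% of all genes. slo, the large-conductance BK channel, was log2 0.02 (SE 0.08, limma adjusted p = 0.846) in males, with its LPHC libraries spread from 14831 to 20160 around the HPLC range of 15751 to 17319. SLO2, a sodium- and calcium-activated relative, rose by log2 0.23 (SE 0.08, limma adjusted p = 0.0233), and SK, the small-conductance channel behind slow afterhyperpolarisation, rose by log2 0.20 (SE 0.07, limma adjusted p = 0.0237). The SLO2 call was lost without male LPHC replicate 3 or 5 and the SK call without HPLC replicate 3 or LPHC replicate 2 or 5, with adjusted p up to 0.0653. In females the 3 genes were between -0.20 and -0.12, and none was called.

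All 4 members of the EAG and KCNQ families rose in males. KCNQ, whose mammalian relatives carry the muscarine-sensitive M current, was at 2580.1, 2568, 2290.4, 2622 and 2477 normalised reads on HPLC and 4178, 3061, 3713, 3139 and 3786 on LPHC. Its female values were 1477, 1416, 1066, 1421 and 1364 normalised reads on HPLC and 1320.2, 1217, 1218, 1288 and 1076 on LPHC. The male groups lay apart and the female groups overlapped, with HPLC replicate 3 lowest. KCNQ rose in males by log2 0.50 (SE 0.08, limma adjusted p = 0.000105), or 41.8%, and was log2 -0.13 (SE 0.09, limma adjusted p = 0.290) in females, a gap between sexes of log2 0.64 (SE 0.13, limma adjusted p = 0.000218).

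sei, an ERG-type channel whose loss gives heat-induced seizures, had male values of 1816, 1792, 1853, 1932 and 1903 normalised reads on HPLC and 2521, 2460.2, 2345, 2298 and 2267 on LPHC. In females it had 991, 965, 933, 1076 and 931 normalised reads on HPLC and 832, 814, 863, 1019 and 824 on LPHC. Male LPHC libraries were all above the HPLC ones, and in females LPHC replicate 4 stood above its group. The male rise was log2 0.35 (SE 0.05, limma adjusted p = 2.09e-05), with the smallest standard error of the 4 genes. The female value was log2 -0.17 (SE 0.08, limma adjusted p = 0.108) and the sexes differed by log2 0.53 (SE 0.09, limma adjusted p = 2.55e-05). Its exons share 14.6% of their bases with gammaSnap1 and ppk29.

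Elk, the eag-like channel, held 1883, 1953, 1657, 1968 and 1876 normalised reads on HPLC and 2596, 2311, 2643, 2337 and 2978 on LPHC in males. Female libraries held 1057, 1073, 860.3, 1042 and 1139 normalised reads on HPLC and 1029, 1006, 986, 812 and 846 on LPHC. The groups lay apart in males and overlapped in females. Elk rose by log2 0.46 (SE 0.07, limma adjusted p = 9.88e-05) in males, was log2 -0.14 (SE 0.09, limma adjusted p = 0.255) in females, and differed between sexes by log2 0.60 (SE 0.12, limma adjusted p = 0.000233). eag itself, the founding member of the family, rose in males by log2 0.19 (SE 0.07, limma adjusted p = 0.0371), with overlapping groups. That call was lost when any 1 of HPLC replicates 2 to 5 or LPHC replicates 1, 3 or 5 was left out, with adjusted p up to 0.0942.

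Of the 3 inward rectifiers, 2 fell in males and none rose, beside 29.6% of all genes called lower and 27.6% higher. These channels pass potassium more easily into the cell than out, and in flies they are also known from epithelia such as the renal tubules. Irk2 was at 1219, 1286, 1472, 1249.8 and 1282 normalised reads on HPLC and 1024, 1053, 998, 1097 and 936 on LPHC in males, so every LPHC library was below every HPLC library. In females it was at 643, 663, 748, 871 and 683 normalised reads on HPLC and 625, 639.9, 593, 699 and 666 on LPHC, with overlap. Irk2 fell in males by log2 0.35 (SE 0.06, limma adjusted p = 0.000293), and was log2 -0.16 (SE 0.09, limma adjusted p = 0.198) in females.

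Irk1 was one of the 2 rarest genes, with 106, 121, 94.3, 93.8 and 77.5 normalised reads on HPLC and 61.3, 66.9, 78.2, 67.8 and 69.4 on LPHC in males. Female libraries held 69.0, 55.1, 60.8, 60.7 and 77.7 normalised reads on HPLC and 89.2, 104, 83.4, 43.7 and 85.0 on LPHC. Male HPLC replicate 5 lay just below the highest LPHC library, and female LPHC replicate 4 lay below its group. Irk1 fell in males by log2 0.50 (SE 0.13, limma adjusted p = 0.00430), was log2 0.28 (SE 0.20, limma adjusted p = 0.312) in females, and was the 1 gene called for a male difference below the female one, at log2 -0.78 (SE 0.25, limma adjusted p = 0.0112). At the same total the male values of Irk1 and Irk2 were -0.25 and -0.10, neither called. Exons of Irk1 share 61.0% of their bases with CG46310 and cnc, and with the strand setting of the counting not stated, reads of these genes cannot be told apart. Irk3 was log2 -0.08 (SE 0.09, limma adjusted p = 0.485) in males and log2 0.03 (SE 0.16, limma adjusted p = 0.912) in females.

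Among the 5 leak channels with paired pore domains, 2 rose in males, a share not far from the 27.6% over all genes. sand, or sandman, opposes the firing of sleep-promoting neurons of the fan-shaped body when it reaches their membrane. Its male libraries held 126, 148, 178, 150.4 and 172 normalised reads on HPLC and 168, 223, 152, 153 and 211 on LPHC. The female libraries held 128, 117, 130.1, 124 and 110.1 normalised reads on HPLC and 131, 135, 105, 108 and 162 on LPHC. All groups overlapped. sand was log2 0.22 (SE 0.13, limma adjusted p = 0.1698) in males and log2 0.06 (SE 0.12, limma adjusted p = 0.754) in females. It passed in males once libraries were scaled to the same total (0.47, limma adjusted p = 0.00498), where the median gene was at 0.27.

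Task7, with Task6 a fly relative of the acid-sensitive TASK channels of mammals, had male values of 646, 696, 680.1, 741 and 665 normalised reads on HPLC and 864, 801, 954, 839 and 865 on LPHC. Its female values were 316, 325, 299, 354 and 290.1 normalised reads on HPLC and 252, 260.3, 292, 362 and 235 on LPHC. The male groups lay apart and the female groups overlapped. Task7 rose in males by log2 0.33 (SE 0.06, limma adjusted p = 0.000318), was log2 -0.19 (SE 0.11, limma adjusted p = 0.213) in females, and differed between sexes by log2 0.52 (SE 0.13, limma adjusted p = 0.00161). Task6 rose in males by log2 0.25 (SE 0.07, limma adjusted p = 0.0112). Ork1, a potassium leak channel that slows pacemaking in the fly heart, was log2 -0.30 (SE 0.15, limma adjusted p = 0.100) in males, with LPHC replicates 1 and 2 at 401 and 441 and the other LPHC libraries within the HPLC range. galene, the rarest of the 5, was log2 0.23 (SE 0.23, limma adjusted p = 0.411) in males, and its exons share 14.3% of their bases with Klp61F.

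The pore-forming sodium channels were not called in either sex. para, the main voltage-gated sodium channel of the fly and the source of its spikes, ranged from 8046 to 10424 on HPLC and from 7439 to 12405 on LPHC in males. Its male difference was log2 0.13 (SE 0.13, limma adjusted p = 0.382) and its female difference log2 -0.10 (SE 0.14, limma adjusted p = 0.622). In males para passed when libraries were scaled to the same total (0.38, limma adjusted p = 0.0157), where the median gene was at 0.27. NaCP60E, a related channel, was log2 0.08 (SE 0.09, limma adjusted p = 0.510) in males and log2 -0.16 (SE 0.15, limma adjusted p = 0.466) in females.

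The 5 accessory subunits are tipE, known to raise sodium current through para, and its Teh relatives. Of them 4 rose in males, beside 27.6% of all genes. Teh4 was at 839, 979, 1006, 909 and 1029 normalised reads on HPLC and 1215, 1239.8, 1208, 1224 and 1252 on LPHC in males. Its female values were 529, 479.9, 392, 609 and 456 normalised reads on HPLC and 525, 593, 448, 459 and 459 on LPHC. The male LPHC libraries lay within a narrow band above all HPLC libraries. Teh4 rose in males by log2 0.37 (SE 0.06, limma adjusted p = 0.000109) and was log2 0.02 (SE 0.11, limma adjusted p = 0.928) in females.

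Teh1 had male values of 1197, 1117, 1121, 1277 and 1260.3 normalised reads on HPLC and 1383, 1378, 1481, 1154 and 1602 on LPHC and female values of 552, 522, 494, 567 and 576 normalised reads on HPLC and 489, 544, 469.6, 503 and 390.4 on LPHC. Its groups overlapped in both sexes. It rose in males by log2 0.22 (SE 0.08, limma adjusted p = 0.0263), and was log2 -0.18 (SE 0.09, limma adjusted p = 0.137) in females. The male call of Teh1 was lost when any 1 of HPLC replicates 2 or 3 or LPHC replicates 3 or 5 was left out, with adjusted p up to 0.0698.

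tipE rose in males by log2 0.27 (SE 0.07, limma adjusted p = 0.00719) and Teh2 by log2 0.21 (SE 0.06, limma adjusted p = 0.00582), and neither call was lost when a library was left out. Teh3 was log2 -0.17 (SE 0.12, limma adjusted p = 0.263) in males. Teh2 and Teh3 share exon bases with each other, 6.97% of Teh2 and 14.4% of Teh3, and tipE shares 19.0% with CG18675.

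Of the 3 calcium channels, cac was called in both sexes, higher on LPHC in males and lower in females, and Ca-alpha1D was called in males. cac, the channel of presynaptic active zones that triggers transmitter release, was at 10813, 9808, 9302, 10521 and 10747 normalised reads on HPLC and 11641, 12319, 12268, 10204 and 13659 on LPHC in males. In females it was at 6054, 5145, 4353, 5991 and 5889 normalised reads on HPLC and 4949, 4691, 4706, 3784 and 3989.5 on LPHC. Both pairs of groups overlapped, the male ones through LPHC replicate 4 and the female ones through HPLC replicate 3. cac rose in males by log2 0.23 (SE 0.07, limma adjusted p = 0.0175), fell in females by log2 0.31 (SE 0.10, limma adjusted p = 0.0345), and differed between sexes by log2 0.53 (SE 0.13, limma adjusted p = 0.00198). The female call was lost at the same total (-0.14), at the same neuron marker mean (-0.17), and also when any 1 of HPLC replicates 1, 4 or 5 or LPHC replicates 4 or 5 was left out, with adjusted p up to 0.0901.

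Ca-alpha1D, the L-type channel, which in flies also works in muscle, was at 11643, 11216, 10115, 11230.2 and 11745 normalised reads on HPLC and 15719.5, 14096, 15575, 14012 and 17858 on LPHC in males. Female libraries held 6134, 5496, 4229.9, 6384 and 6231 normalised reads on HPLC and 5458, 5802, 5559.5, 4143 and 4329 on LPHC. Male groups lay apart and female groups overlapped. It rose in males by log2 0.46 (SE 0.07, limma adjusted p = 7.56e-05) and was log2 -0.17 (SE 0.12, limma adjusted p = 0.320) in females. The gap between sexes was log2 0.63 (SE 0.15, limma adjusted p = 0.00144). Ca-alpha1T, the T-type channel that opens at low voltage, was log2 0.13 (SE 0.09, limma adjusted p = 0.229) in males and log2 -0.17 (SE 0.15, limma adjusted p = 0.410) in females.

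All 3 accessory calcium channel genes rose in males. Ca-beta, the intracellular beta subunit, was at 6254, 5473, 5473, 5859 and 5957 normalised reads on HPLC and 6991, 6289.9, 7127, 6021 and 7959 on LPHC in males. In females it was at 3160.0, 2789.6, 2287, 3352 and 3285 normalised reads on HPLC and 2814, 2940.1, 2642, 2022 and 2146 on LPHC. HPLC replicate 1 overlapped the male LPHC range, and the female groups overlapped widely. Ca-beta rose by log2 0.24 (SE 0.07, limma adjusted p = 0.0117) in males and was log2 -0.25 (SE 0.12, limma adjusted p = 0.145) in females. stj (straightjacket) and stol (stolid) encode alpha2delta subunits, of which stj is needed to bring cac to the synapse. stj rose by log2 0.17 (SE 0.06, limma adjusted p = 0.0244) and stol by log2 0.24 (SE 0.09, limma adjusted p = 0.0320).

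These 2 calls depended on single libraries. stj was no longer called when any 1 of HPLC replicates 1, 2 or 4 or LPHC replicates 3 or 5 was left out (adjusted p up to 0.0662), and stol when any 1 of HPLC replicates 2, 3 or 5 or LPHC replicates 2, 3 or 5 was left out (adjusted p up to 0.0828).

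All 3 genes of the sodium leak complex rose in males. na (narrow abdomen), the fly NALCN channel, carries a steady inward current that drives the daily rhythm of clock neuron firing, and unc79 and unc80 are the large proteins that it needs. unc80 was at 11893, 11376, 10011, 11168 and 12671 normalised reads on HPLC and 14745, 13089, 17179.9, 17102 and 17392 on LPHC in males. Its female values were 6415, 5404, 4040.1, 6757 and 6181 normalised reads on HPLC and 5330.3, 5364, 5551, 3461 and 3747 on LPHC. Every male LPHC library exceeded all HPLC libraries, and the female groups overlapped. unc80 rose in males by log2 0.47 (SE 0.09, limma adjusted p = 0.000349), was log2 -0.30 (SE 0.16, limma adjusted p = 0.158) in females, and had the greatest positive gap between sexes of the 39 genes, log2 0.77 (SE 0.20, limma adjusted p = 0.00215).

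unc79 rose in males by log2 0.44 (SE 0.11, limma adjusted p = 0.00291), with LPHC replicate 2 at 12510 within the HPLC range and the other LPHC libraries from 16742 to 20266. na rose by log2 0.26 (SE 0.06, limma adjusted p = 0.00235), with no overlap. In females na was log2 -0.03 (SE 0.12, limma adjusted p = 0.871) and unc79 log2 -0.19 (SE 0.16, limma adjusted p = 0.406). Ih, the hyperpolarisation-activated pacemaker channel, was log2 -0.04 (SE 0.09, limma adjusted p = 0.734) in males and log2 -0.15 (SE 0.10, limma adjusted p = 0.296) in females. At the same total its male value was 0.21 and called (limma adjusted p = 0.0466). That value lay below the male median gene on this scale, 0.27, where 55.5% of all genes were called higher.

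Per length of merged exons, qvr was by far the most abundant of the 39 genes, with 179 ± 4.88 RPKM (reads per kilobase, scaled to the library total) in male HPLC libraries and 248 ± 21.0 in male LPHC libraries. It was followed in male HPLC libraries by Teh2 (65.4 ± 2.33), slo (62.1 ± 2.22), stj (53.1 ± 1.99) and unc79 (47.9 ± 2.17). The levels of Teh2 and slo were within 2 SD of each other. On LPHC unc79 (78.5 ± 14.4) stood between Teh2 (90.5 ± 8.52) and slo (75.4 ± 11.02), and these neighbours differed by less than their spread.

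The lowest levels were those of sand, Irk1 and galene, at 2.999 ± 0.412, 0.719 ± 0.118 and 0.508 ± 0.127 in male HPLC libraries, and of these Irk1 and galene differed by less than 2 SD. Female levels kept qvr first, with 91.0 ± 11.4 on HPLC and 94.3 ± 7.94 on LPHC, followed by slo, Teh2 and stj at 33.3 ± 6.33, 31.4 ± 5.29 and 30.9 ± 5.64 on HPLC, which were within their spread of each other. These levels divide by the total reads of a library, not by the deposited size factor. A gene with many alternative exons, such as Sh with 22801 merged bases, is placed lower than the length of 1 transcript would place it.

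**Figure D5:**
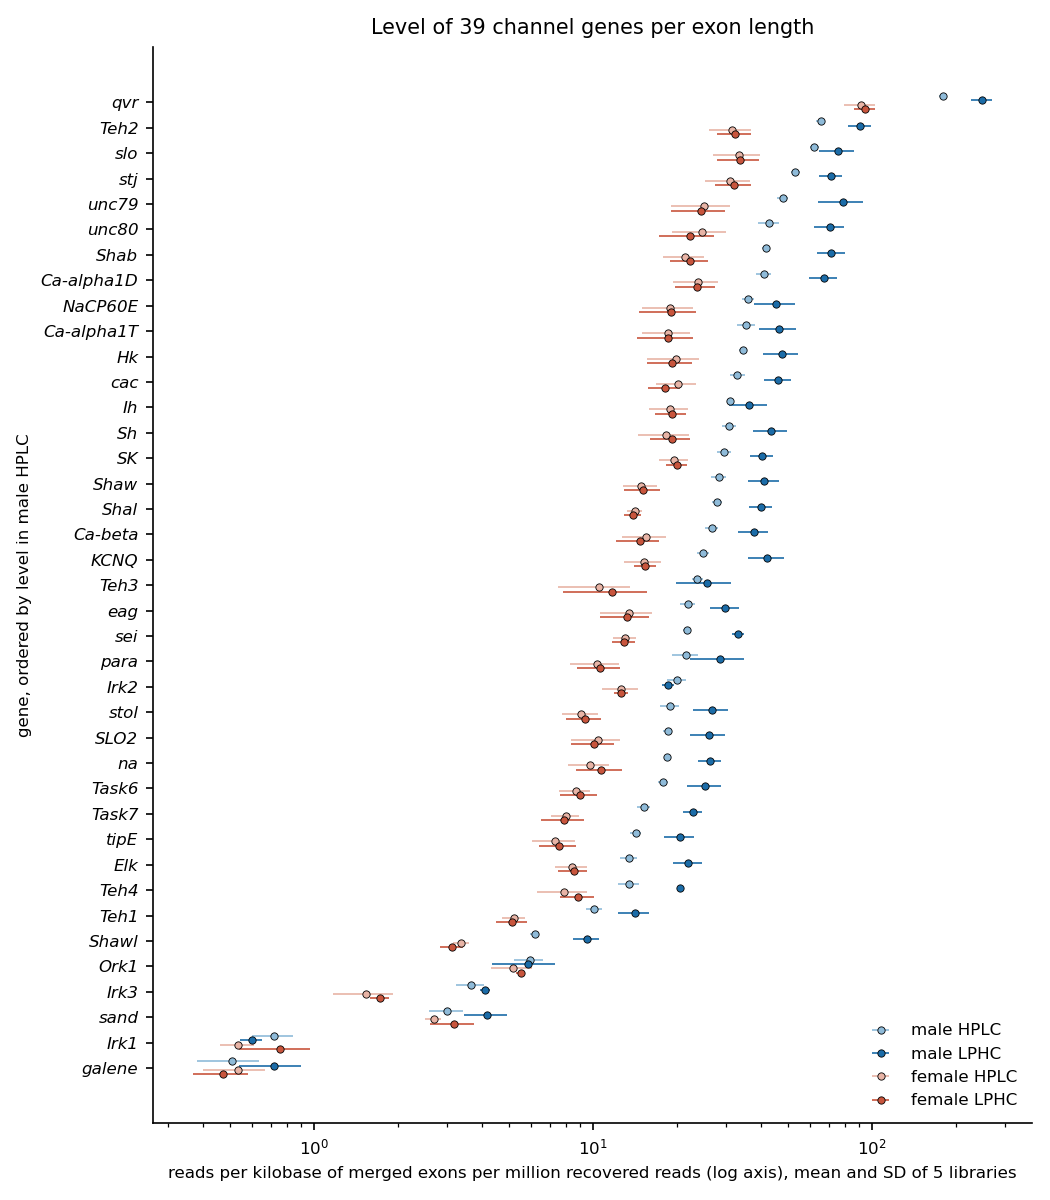
Level of each of the 39 genes (vertical axis, ordered by male HPLC) in RPKM over merged exons (horizontal log axis), as the mean and SD of 5 libraries a group. qvr is highest in each group, at 179 in male HPLC and 91.0 in female HPLC, and galene and Irk1 are lowest, under 0.8 in each group.

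Other genes of membrane excitability, listed by name like the 39, are given at the deposited scaling. Their counts stand against 27.6% of all genes called higher and 29.6% lower in males and 16.7% and 14.8% in females, and their medians against 0.02 and -0.02. In such short lists shares near these are no result about the list. Of 12 TRP channels tested in males 5 rose and 0 fell, with a median of 0.12, and of 11 in females 3 rose and 0 fell, with a median of 0.19. Trpm, a magnesium- and zinc-permeable TRP channel, rose in males by log2 0.45 (SE 0.06, limma adjusted p = 2.60e-05), and iav, needed in hearing neurons, rose in females by log2 1.26 (SE 0.14, adjusted p = 8.72e-06). The phototransduction channel trp rose in both sexes, by log2 0.28 (SE 0.09, adjusted p = 0.0171) in males and log2 0.40 (SE 0.09, adjusted p = 0.00260) in females.

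Of 10 cyclic nucleotide-gated and chloride channels, 6 rose and 3 fell in males (median 0.26) and 2 rose and 2 fell in females (median -0.07). subdued, a chloride channel of the anoctamin family, fell by log2 0.53 (SE 0.06, adjusted p = 4.77e-06) in males and rose by log2 0.94 (SE 0.09, adjusted p = 2.17e-06) in females. Best1, a bestrophin chloride channel, went the other way, log2 0.41 (SE 0.06, adjusted p = 2.50e-05) in males and log2 -0.38 (SE 0.07, adjusted p = 0.000728) in females. CngB, a cyclic nucleotide-gated channel subunit, rose in males by log2 0.40 (SE 0.05, adjusted p = 2.13e-05).

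Among 6 further genes related to the paired-pore leak channels, 2 rose in males (median 0.32) and 1 in females (median 0.04), and CG34396 rose in both, from a mean of 328 to 501 normalised reads in males (log2 0.61, SE 0.10, adjusted p = 0.000153) and from 216 to 452 in females (log2 1.04, SE 0.16, adjusted p = 0.000147). CG1688 rose in males by log2 0.27 (SE 0.09, adjusted p = 0.0172).

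Of 7 pump and cotransporter genes tested in males 1 rose and 4 fell (median -0.21), and in females 2 rose and 0 fell (median 0.05). NKCC, a sodium, potassium and chloride cotransporter, fell in males from 2200 to 1252 normalised reads (log2 -0.82, SE 0.11, adjusted p = 1.74e-05). Its relative Ncc69 fell by log2 0.42 (SE 0.08, adjusted p = 0.000676) in males and rose by log2 0.28 (SE 0.09, adjusted p = 0.0241) in females. nrv1, a beta subunit of the sodium pump, was log2 -0.24 (SE 0.09, adjusted p = 0.0263) in males and log2 0.29 (SE 0.08, adjusted p = 0.00890) in females.

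Of 8 genes of calcium handling 3 rose and 2 fell in males (median -0.09) and 0 rose and 1 fell in females (median -0.11), shares not far from those over all genes. Calx, the sodium-calcium exchanger, rose in males by log2 0.24 (SE 0.05, adjusted p = 0.001002) and fell in females by log2 0.29 (SE 0.09, adjusted p = 0.0210). RyR, the calcium release channel of the endoplasmic reticulum, rose in males by log2 0.35 (SE 0.09, adjusted p = 0.00419), and Stim, the calcium sensor of that store, fell by log2 0.25 (SE 0.05, adjusted p = 0.000557).

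Of 17 partners and regulators of channels 6 rose and 3 fell in males (median 0.11) and 0 rose and 2 fell in females (median -0.14), the male rises and female falls at shares not far from those over all genes. mle, a helicase also known from an allele that lowers para function, rose in males by log2 0.31 (SE 0.05, adjusted p = 0.000215) and fell in females by log2 0.25 (SE 0.08, adjusted p = 0.0302). wake, a clock output gene that promotes the onset of sleep, rose in males by log2 0.25 (SE 0.06, adjusted p = 0.00162), and Slob, which binds the slo channel, by log2 0.21 (SE 0.05, adjusted p = 0.00270).

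Of 7 Ly6 relatives of qvr 1 rose and 3 fell in males (median -0.05), and 0 rose and 1 fell in females (median 0.06). atilla fell in males by log2 0.78 (SE 0.06, adjusted p = 3.20e-08), from 3025 to 1762 normalised reads. bou, which has a role in septate junctions, fell in both sexes, by log2 0.72 (SE 0.11, adjusted p = 6.60e-05) in males and log2 0.60 (SE 0.12, adjusted p = 0.00131) in females, and rtv, needed for tracheal cuticle, fell in males by log2 0.43 (SE 0.09, adjusted p = 0.000788).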

How the data were processed

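Total RNA from brains was taken with Trizol and sequenced on Illumina libraries, per the labels' protocols. HISAT2 did the alignment, per the submitters' processing notes. No counting tool, strand setting, genome build or annotation is stated there, and no coordinates are given here. The values that the authors deposited are a normalised signal: the reads of a gene over the size factor of its library, with the male and the female table scaled apart. All values came out as whole reads within a tolerance of 0.01 (100% in each library). Levels were therefore not tested between sexes.

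LPHC was compared with HPLC by limma 3.58.1 with an intensity trend (R 4.3.3), 2-sided, on log2(value + 1), keeping genes that reached 10 in 5 or more libraries, with Benjamini-Hochberg adjustment over all genes at 0.05. For rare genes the added 1 makes a fold change look smaller than it is. The sexes were compared in 1 limma fit over both tables. Ratios of subunits were compared by 2-sided exact permutation tests over libraries (SciPy 1.17.1). Exon lengths are merged exons of the Ensembl fly annotation, found for 99.87% of 12441 gene names. They serve for levels per length, for the choice of long genes and for the removal of a trend on exon length. No 2 libraries of a group agreed within sampling noise (lowest chi-square per degree of freedom 7.55).

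Alternatives were pseudocounts of 0.5 and 8, no filter and a filter at 50, 3 other scalings, the leaving out of each library, the replicate number as a block, robust moderation, and fits of the recovered reads with edgeR 4.0.16 and DESeq2 1.42.0. The removal of a trend on exon length was added after seeing the data. The members, the other gene lists and the tests were chosen with earlier results of these data known. Values are given for every library of Sh, Hk, qvr and sand, of the 8 members with the smallest adjusted p in each sex and of the 5 whose difference between sexes had the smallest p, and in other lists up to 3 called genes are named; the values of Irk1 were added after they were seen. The fits were tested on simulated data.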

Additional observations from a re-analysis of the deposited data

Results flagged for a closer look

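In 4 of 156 groups of 5 libraries, 1 library lay beyond Dixon's critical ratio of 0.71, where chance gives about 1 in 20 groups. Irk2 was at 1472 normalised reads in male HPLC replicate 3, with the other 4 libraries at 1219 to 1286. In female HPLC replicate 3, KCNQ was at 1066, with the others at 1364 to 1477, and para was at 2668, with the others at 3947 to 4383. sei was at 1019 in female LPHC replicate 4, with the others at 814.5 to 863.2.

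The male difference between diets differed from the female one in 24 channel genes in the limma fit over both sexes, at an adjusted p under 0.05; sex and diet recipe cannot be told apart in it. On the log2 scale, male minus female, the potassium channels were Shal at 0.441, Shab at 0.625, Shaw at 0.430, Shawl at 0.643, SLO2 at 0.428, SK at 0.324, sei at 0.527, Elk at 0.603, KCNQ at 0.638, Task6 at 0.362, Task7 at 0.522 and Irk1 at -0.779. The Shaker partners were Hk at 0.418 and qvr at 0.327. The sodium channel subunits were tipE at 0.382, Teh1 at 0.407, Teh2 at 0.331 and Teh4 at 0.353. The calcium channel genes were cac at 0.534, Ca-alpha1D at 0.631, Ca-beta at 0.485 and stol at 0.359, and the leak complex genes were unc79 at 0.633 and unc80 at 0.774.

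Leaving out single libraries ended 7 of these calls. Those of Hk, stol, tipE, Teh4, SLO2, Task6 and Teh2 were lost in 12, 11, 7, 7, 6, 2 and 2 of 20 fits, with adjusted p up to 0.0952. Female LPHC replicate 5 ended all 7, female LPHC replicate 4 and female HPLC replicate 4 ended 5 and 6 of them, and male LPHC replicate 5 ended 5. With libraries scaled to the same neuron marker mean, Shab, Shawl, Elk, KCNQ, cac, Ca-alpha1D and unc80 were above 0 and Irk1, Irk2 and Ork1 below it.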

How the results depend on the processing

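Counts of channel genes kept within 1.5 times the reported count under the other settings except as follows. At the same neuron marker mean 11 genes were called higher in males, 0 lower in females, and 10 differed between sexes. At the same total 0 were called lower in both sexes. Removing a trend on exon length, added after seeing the data, left 4 female genes lower, with 1752 of all 9928 genes lower. The male difference of Ih turned from -0.04 to 0.213 at the same total, where the median gene was at 0.27. A further 76 sign changes were in genes that passed in neither setting. Deviations of same-numbered libraries had correlations of -0.23 to 0.05, and those of other pairs ran from -0.33 to 0.33. So few pairs cannot decide whether the numbers mark a batch. With the replicate number as a block the counts were 24 higher and 2 lower in males and 0 higher and 1 lower in females. In these fits 2520 and 2834 of all 10115 male genes and 1410 and 1199 of all 9932 female genes were called. Between sexes the channel counts were 20 above and 1 below, against 1951 and 2693 of all 9766 genes. Leaving out 1 library at a time gave 19 to 27 higher and 2 to 3 lower in males, 0 to 1 higher and 1 to 5 lower in females, 17 to 28 differing between sexes, and 5311 to 5844 male and 2651 to 3359 female genes called in all. Depth limits Irk1 and galene most, at 0.719 and 0.508 RPKM in male HPLC libraries.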
